A study of Rattus norvegicus with 3 samples.

Results

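Autophagy is the process by which a cell wraps part of its own contents in a double membrane, the autophagosome, and delivers it to the lysosome. Kinases of the ULK complex start the process, a lipid kinase complex around Becn1 and Pik3c3 marks the membrane, and a conjugation system resembling ubiquitin attaches proteins of the ATG8 family (LC3 and GABARAP proteins) to it. Cargo receptors bind both the ATG8 proteins and the material to be removed, such as protein aggregates, damaged mitochondria or broken lysosomes. In macrophages the same machinery also handles particles that were taken up and the damage they cause to lysosomes. The genes described here were listed by name for these roles, with earlier results of these data known. The list held 34 genes in 6 classes, of which 33 had a probe on the array with 53 probes between them, out of 15925 named genes and 41103 probes in the table. Atg4a, one of the proteases that prepare ATG8 proteins, had no named probe and was not analysed here.

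The cells were NR8383, an established line of rat alveolar macrophages, the phagocytes of the lung surface. They were kept for 24 h with CNT-1 or with CNT-2, which the labels call impurity-free single-wall carbon nanotubes, at 0.1 mg/mL, in a working solution that held 1 mg/mL bovine serum albumin. The labels of the control name it both as untreated and as an albumin solvent control, so what the control cells received is not settled. The labels do not say in what CNT-1 differs from CNT-2, and all groups are cultures of this 1 line. RNA was read on 1-colour Agilent arrays, and the table held 1 column per group. The design text states an n of 4, and it is not settled whether each column stands for 1 array or for an average.

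Each value below is a difference between 2 columns in log2 units, and the value of a gene is the mean over its probes. Log base 2 is presumed, though natural logs could not be told apart from it. On that base 1 log2 unit is 2-fold. With 1 column per group there was no replicate and no test, so higher and lower describe these columns only. In RNA of whole cultures, fewer cells with a transcript and less of it per cell cannot be told apart. A probe SD is the spread over probes of a gene within the same columns and does not stand for the spread between cultures. From their signs and medians the deposited values appear centred per probe, so the abundance of an mRNA cannot be read from them and no gene was ranked by level. For the same reason the label of the cells could not be checked against the levels of macrophage markers. None of 11 macrophage markers and none of 15 markers of other cells had only background-like probes in the control, that is, control values within 0.02 of the negative-control probe. As the values appear centred, this does not show whether any marker is expressed. Among the markers of other cells 14 of 15 lay below 0 in CNT-1 minus control and 10 of 15 in CNT-2 minus control, with medians of -0.18 and -0.31, where 57.8% and 46.4% of all named genes lay below 0. Those past 2-fold in CNT-1 were the epithelial Epcam at 1.61, Cd2 at -1.42 and Elane at -1.20. In CNT-2 they were the epithelial Krt18 at 1.34 and Cd79a at -1.37. The other epithelial markers were mixed, with Sftpb, Krt18 and Sftpc below 0 in CNT-1 and Epcam and Sftpc below 0 in CNT-2. Of the 11 macrophage markers none was past 2-fold in CNT-1, and in CNT-2 Fabp4 was at 3.96, Cd14 at 3.37, Csf1r at -1.25 and Mrc1 at -2.24. The part of this in the values below was not tested. Of the 53 autophagy probes 51 lay within 0.1 of 0 in the control column and none was background-like, whereas 72.6% of all gene probes lay near 0 and 14.5% were background-like. The negative-control probe read 0.16 in control, so a probe within 0.1 of 0 cannot be background-like by this definition. Shares and medians over all named genes include the background-like probes unless stated.

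The spread of the columns differed, with an SD over all probes of 0.16 in control, 0.40 in CNT-1 and 0.85 in CNT-2. Over all named genes the median difference was -0.04 for CNT-1 minus control and 0.04 for CNT-2 minus control. For CNT-2 minus control this median became -0.05 when columns were centred on their medians, -0.18 with spike-in probes, -0.40 with the 75th percentile and 0.02 after quantile normalization. For CNT-1 minus control the same settings gave -0.02, 0.003, -0.10 and 0.08. The 10 spike-in probes themselves, which report RNA added before labelling, lay 0.23 ± 0.10 (SD over probes) above control in CNT-2 and -0.05 ± 0.07 from control in CNT-1. A value close to 0 therefore has no settled sign, and differences between classes, in which a shift of a whole column cancels, are given beside the values.

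In cells exposed to CNT-2, 4 of 7 cargo receptors were at least 2-fold higher than in control cells in these columns, where 10.1% of all named genes were. The receptors Calcoco2 and Bnip3l lay near control at 0.12 and 0.13. Of the 5 ATG8 genes 1, Map1lc3a, was past 2-fold as deposited, and it fell below 2-fold in each other scaling, to 0.47 after quantile normalization. The medians of the kinases that start autophagy and of the Becn1 complex, at -0.36 and 0.07, each changed sign in at least 1 scaling. At least 2-fold higher were 7 of 33 members (21.2%), against 10.1% of all named genes, and 0 members were at least 2-fold lower, against 6.56% of all named genes. The members past this bound were Bnip3, Sqstm1, Tax1bp1, Wipi2, Optn, Atg4c and Map1lc3a. With columns centred on the 75th percentile 2 members were higher, Bnip3 and Sqstm1, and 1 was lower, Wipi1 at -1.04, where 5.26% of all named genes were higher and 14.4% lower. The median over the 33 members was 0.35 and 25 of them lay above 0 (75.8%), against 53.5% of all named genes. Map1lc3a, at 1.04, lay just inside the bound of 1 log2 unit and Gabarap, at 0.70, was the nearest member outside it.

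In cells exposed to CNT-1 the same genes lay close to control. No member was at least 2-fold higher, against 1.16% of all named genes, and none was at least 2-fold lower, against 2.15%. At these shares a count of 0 in 33 genes does not set the members apart. The median over members was 0.05, with 23 of 33 above 0 (69.7%), where 42.1% of all named genes lay above 0. That 42.1% includes genes with background-like probes, which no member had, and it was not recounted without them. Without such probes the median of all genes was -0.02, against -0.04 with them. It was -0.001 with only probes near 0 in the control. The member furthest from control was Atg4c at 0.88, followed by Bnip3 at 0.67 and Rubcn at 0.63. While 23 of 33 members lay within 0.25 of 0, the same share was not counted over all named genes. Quartiles of all named genes were -0.25 and 0.11, against -0.05 and 0.20 for the members. After quantile normalization, which gives the narrow control column the spread of the others, 3 members were at least 2-fold higher, Atg4c, Gabarapl2 and Bnip3, where 3.68% of all named genes were.

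**Figure D1:**
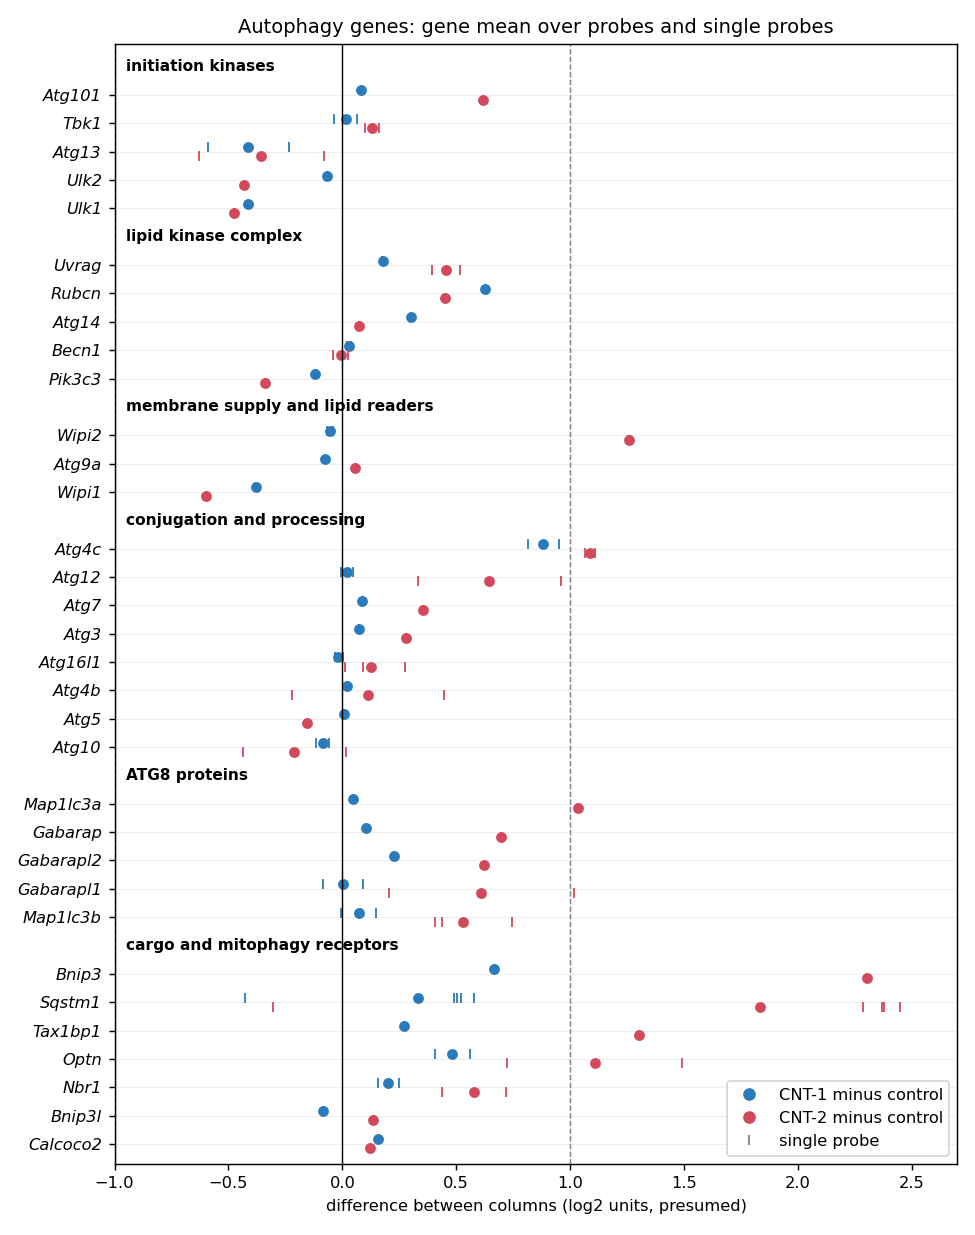
Difference from control in log2 units (horizontal axis) for each of the 33 measured autophagy genes (rows, grouped by class), with gene means as points and single probes as ticks. CNT-1 is drawn above CNT-2 in each row. Dashed lines mark 1 log2 unit. The CNT-1 points stay below 1, whereas 7 CNT-2 points, 4 of them receptors, lie beyond it, and 1 of the 5 Sqstm1 probes lies apart from the others.

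In the deposited values the class medians lay further apart in CNT-2 than in CNT-1, as did the values of all genes. After quantile normalization they spanned about the same range, from -0.08 to 0.61 in CNT-2 and from -0.08 to 0.55 in CNT-1. In CNT-2 minus control as deposited the median was 1.11 for the 7 cargo and mitophagy receptors and 0.62 for the 5 ATG8 proteins. The 8 conjugation and processing genes had a median of 0.20, the 5 genes of the lipid kinase complex 0.07, the 3 genes of membrane supply and lipid reading 0.05 and the 5 initiation kinases -0.36. In CNT-1 minus control the medians in the same order were 0.27, 0.07, 0.02, 0.18, -0.08 and -0.07. The receptor median exceeded that of the 26 other members by 0.90 in CNT-2 and by 0.25 in CNT-1. This excess was 0.39 and 0.36 after quantile normalization and 0.29 and 0.15 with the probe nearest 0, so a larger excess in CNT-2 is not settled. The receptor and ATG8 medians stayed above 0 in every setting tried, for both nanotubes. They also stayed above the median of all genes, but centring cannot change that order, as a shift of a whole column cancels. Their lowest values in CNT-2 were 0.44 for receptors, with the probe nearest 0 taken for each gene, and 0.18 for ATG8 proteins, with 75th percentile centring. The initiation median in CNT-2 turned to 0.20 after quantile normalization, and the medians of the conjugation, lipid kinase and membrane classes changed sign in at least 1 scaling, so no direction is given for them.

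**Figure D2:**
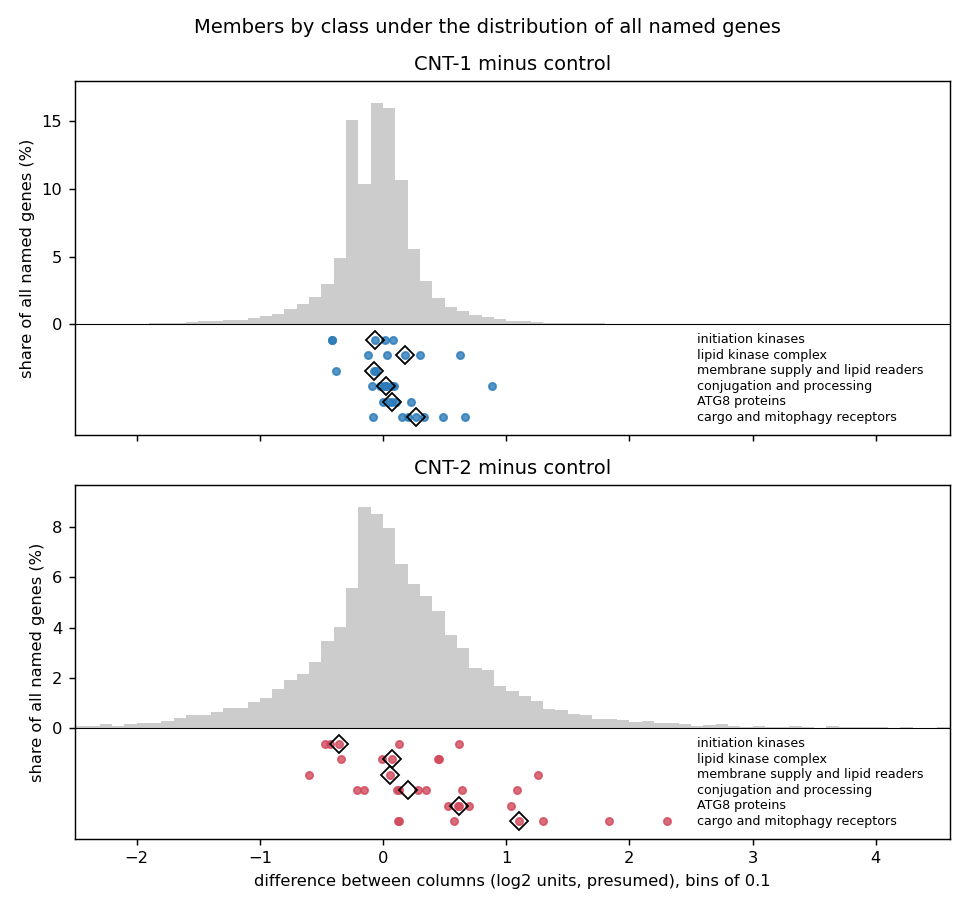
Grey bars give the share of the 15925 named genes (vertical axis, %) in bins of 0.1 log2 units of the difference from control (horizontal axis, genes beyond the axis not drawn). Points below each histogram are single members by class, and open diamonds are class medians. The receptor diamond lies at 0.27 for CNT-1 and 1.11 for CNT-2, where the distribution of all genes is also wider.

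Cargo receptors held the furthest values of the members in CNT-2 minus control, led by Bnip3 and Sqstm1. Bnip3, a receptor on the outer mitochondrial membrane that links mitochondria to ATG8 proteins and is known to be induced in low oxygen, read -0.02 in control, 0.64 in CNT-1 and 2.28 in CNT-2 with its 1 probe. CNT-2 minus control was 2.30, which placed it 316th from the highest of all named genes, and CNT-1 minus control was 0.67, which placed it 473rd. It was past the bound in CNT-2 minus control in each setting that measured it, the lowest value being 1.54. With 1 probe, the choice of probe summary could not move it. Its close relative Bnip3l, also called NIX, with the same role in mitochondrial removal, read 0.01, -0.07 and 0.15 with its 1 probe, which gives 0.13 in CNT-2 minus control.

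Sqstm1, also called p62, gathers ubiquitinated proteins and is itself degraded by autophagy. It had 5 probes. The 4 probes named through RefSeq transcripts read -0.01, 0.02, 0.02 and -0.01 in control. In CNT-1 they read 0.48, 0.53, 0.54 and 0.57, and in CNT-2 2.36, 2.39, 2.31 and 2.44. These 4 agreed closely and put CNT-2 minus control at 2.37 ± 0.07 and CNT-1 minus control at 0.52 ± 0.04 (probe SD, 4 probes). The fifth probe, named by its platform symbol through a record that is not among the RefSeq transcripts, read -0.01, -0.44 and -0.32 and so lay below control for both nanotubes. With all 5 probes the gene was at 1.83 ± 1.20 for CNT-2 and 0.33 ± 0.43 for CNT-1 (probe SD, 5 probes). Which transcript the fifth probe detects was not tested.

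Tax1bp1, a receptor for ubiquitinated cargo, read -0.01 in control, 0.26 in CNT-1 and 1.29 in CNT-2 with 1 probe, a difference of 1.30 for CNT-2 and 0.27 for CNT-1. Optn, optineurin, a ubiquitin receptor that works with the kinase Tbk1, had 2 probes that differed in size. One read 0.00, 0.56 and 1.49 in control, CNT-1 and CNT-2 and the other read 0.02, 0.43 and 0.75. The gene was at 1.11 ± 0.54 for CNT-2 and 0.48 ± 0.11 for CNT-1 (probe SD, 2 probes), with both probes above control for both nanotubes. Nbr1, a receptor that binds ubiquitinated cargo together with p62, was at 0.58 ± 0.20 for CNT-2 and 0.20 ± 0.07 for CNT-1 (probe SD, 2 probes). Calcoco2, also called NDP52, known as a receptor for bacteria and damaged membranes, differed little, at 0.12 for CNT-2 and 0.16 for CNT-1. The 7 receptors thus ranged from 0.12 to 2.30 in CNT-2 minus control. All lay above 0 in the deposited values, against 53.5% of all named genes, and 4 were past the bound, against 10.1% higher. With 75th percentile centring 2 of the 7 were past it, against 5.26% of all named genes.

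**Figure D3:**
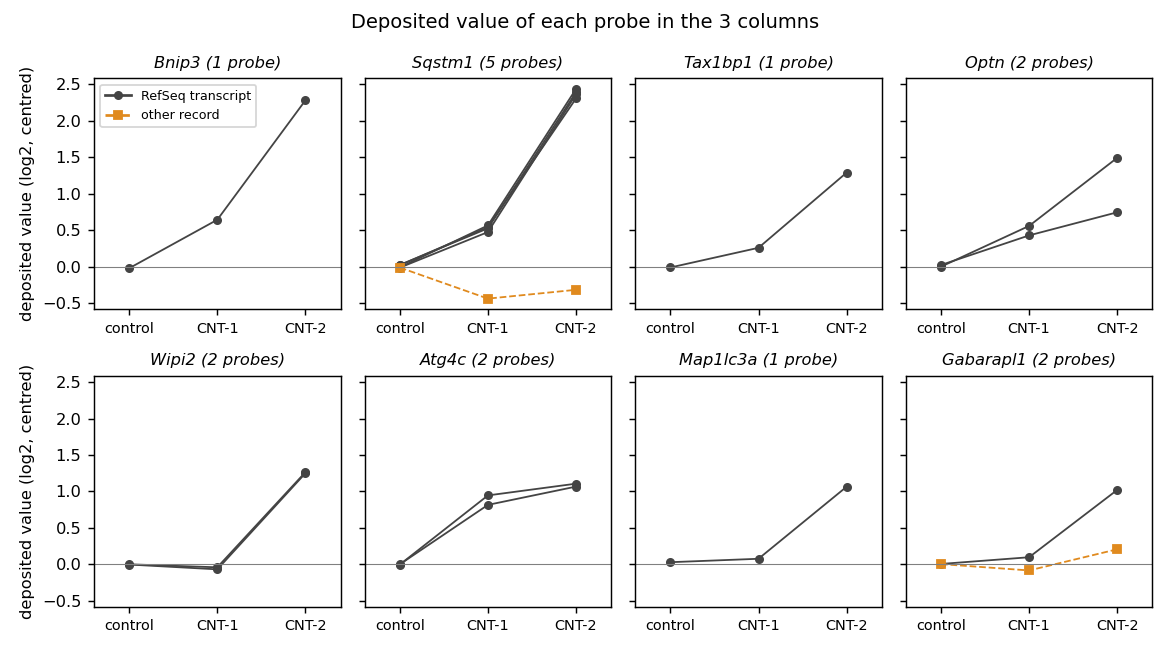
Deposited log2 value of every probe (vertical axis) in the control, CNT-1 and CNT-2 columns (horizontal axis) for the 7 genes at least 2-fold higher in CNT-2 and for Gabarapl1. Lines join the values of 1 probe, and orange squares are probes whose record is not a RefSeq transcript. Those probes lie lowest for Sqstm1 and Gabarapl1, and the 2 Wipi2 probes coincide.

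All 5 ATG8 genes lay above control in CNT-2, in a narrow range from 0.53 to 1.04. ATG8 proteins are joined to the lipid of the growing membrane, where they hold cargo receptors and help the autophagosome to fuse. Map1lc3a read 0.03 in control, 0.08 in CNT-1 and 1.07 in CNT-2 with its 1 probe. Map1lc3b, whose protein LC3B is the common marker of autophagosomes, had 3 probes that read 0.45, 0.75 and 0.45 in CNT-2, with a difference of 0.53 ± 0.19 (probe SD, 3 probes). Gabarap read -0.01, 0.10 and 0.69 in the 3 columns, giving 0.70 for CNT-2. Gabarapl2 was at 0.62, from -0.15 in control and 0.47 in CNT-2. Gabarapl1 was at 0.61 ± 0.57 (probe SD, 2 probes), from a probe at 1.02 and another, of a record outside the RefSeq transcripts, at 0.20. In CNT-1 these 5 genes lay between 0.002 and 0.23 from control.

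Among conjugation and processing genes 1 of 8 was past the bound in CNT-2 (12.5%), near the 10.1% of all named genes that were higher. Atg4c, a protease that trims ATG8 proteins and can release them from lipid, lay well above control for both nanotubes. Its 2 probes read 0.00 and 0.00 in control, 0.82 and 0.95 in CNT-1 and 1.07 and 1.11 in CNT-2. The differences from control were 0.88 ± 0.10 for CNT-1 and 1.09 ± 0.03 for CNT-2 (probe SD, 2 probes), and CNT-2 minus CNT-1 was 0.21 ± 0.06. Its rank from the highest of all named genes was 261 in CNT-1 and 1409 in CNT-2. The related protease Atg4b was at 0.11 ± 0.47 for CNT-2, with 1 probe at 0.45 and the other at -0.22, so its direction is not settled.

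In CNT-2 minus control the other conjugation genes lay between -0.21 and 0.64. Atg12, the ubiquitin-like protein joined to Atg5, was at 0.64 ± 0.44 (probe SD, 2 probes) in CNT-2, while Atg5 itself was at -0.15. Atg16l1, which binds the Atg12-Atg5 pair and places it on the membrane, was at 0.13 ± 0.14 (probe SD, 3 probes). Atg7, the activating enzyme of the system, was at 0.35, and Atg3 and Atg10, the enzymes that pass on LC3 and Atg12, were at 0.28 and -0.21 ± 0.32 (probe SD, 2 probes for Atg10). In CNT-1 these 6 genes lay between -0.09 and 0.09.

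The 2 WIPI genes among the members, whose proteins read the lipid made by the Becn1 complex, differed in sign in CNT-2. Wipi2 read 0.00 and 0.00 in control, -0.07 and -0.04 in CNT-1 and 1.25 and 1.26 in CNT-2. CNT-2 minus control was 1.26 ± 0.01 and CNT-1 minus control -0.05 ± 0.02 (probe SD, 2 probes), so that the value past the bound was in CNT-2. Wipi1 read 0.06, -0.32 and -0.54 with its 1 probe, giving -0.60 for CNT-2 and -0.38 for CNT-1, and was the lowest member in CNT-2 minus control. Atg9a, a membrane protein of the vesicles that seed the autophagosome, was at 0.05 for CNT-2 and -0.08 for CNT-1.

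No gene of the 2 kinase classes, with 5 genes each, was past the bound. In CNT-2 10.1% of all named genes were higher and 6.56% lower, and in CNT-1 1.16% and 2.15%. At these shares a count of 0 in so few genes does not set the kinases apart. Ulk1, the kinase at the head of the pathway, read 0.00 in control, -0.42 in CNT-1 and -0.47 in CNT-2 and was the lowest member in CNT-1 minus control. Its relative Ulk2 was at -0.43 for CNT-2 and -0.07 for CNT-1. Atg13, the subunit that carries the nutrient signal to the complex, was at -0.36 ± 0.39 for CNT-2 and -0.41 ± 0.25 for CNT-1 (probe SD, 2 probes). One of its probes read 0.44 in the control column, far from 0, and gave -0.63 in CNT-2 minus control, while the other gave -0.08. Atg101, which stabilises Atg13, lay on the other side at 0.62 for CNT-2 and 0.08 for CNT-1. Tbk1, the kinase that phosphorylates Optn and p62, was at 0.13 ± 0.04 and 0.01 ± 0.07 (probe SD, 2 probes).

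In the lipid kinase complex Becn1, the scaffold, was at -0.01 ± 0.05 for CNT-2 and 0.03 ± 0.01 for CNT-1 (probe SD, 2 probes), and Pik3c3, the kinase, at -0.34 and -0.12. The subunits that direct the complex to a step lay slightly higher. Uvrag, of the form that acts on maturation, was at 0.45 ± 0.09 and 0.18 ± 0.003 (probe SD, 2 probes). Rubcn, Rubicon, which restrains that form and is needed for LC3 on phagosomes, was at 0.45 for CNT-2 and 0.63 for CNT-1. Atg14, of the form that starts autophagosomes, was at 0.07 and 0.30. Rubcn and Atg14, each with 1 probe, thus lay higher in CNT-1 than in CNT-2.

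Both nanotubes were given at the same dose and time, so their columns were also set against each other, without a test. CNT-2 minus CNT-1 was at least 1 log2 unit for 4 of 33 members (12.1%), against 9.32% of all named genes. It was at or below -1 for 0 members, against 4.65%. Of the members 23 of 33 lay above 0 (69.7%), against 63.3% of all named genes. The 12.1% and 69.7% both lay near the shares of all named genes. The 4 were Bnip3 at 1.64, Sqstm1 at 1.503 ± 0.77 (probe SD, 5 probes), Wipi2 at 1.31 ± 0.01 (probe SD, 2 probes) and Tax1bp1 at 1.03, and Map1lc3a, at 0.99, was the nearest outside. The members' median was 0.21 where the median of all named genes was 0.15, or 0.13 without background-like probes. The receptor median exceeded that of the other members by 0.49. After quantile normalization 0 members were past the bound, against 2.74% of all named genes higher and 2.08% lower. The members' median was then 0.002 and the receptor excess 0.08. Both exposures share the control column, so their differences from control are not independent of each other.

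**Figure D4:**
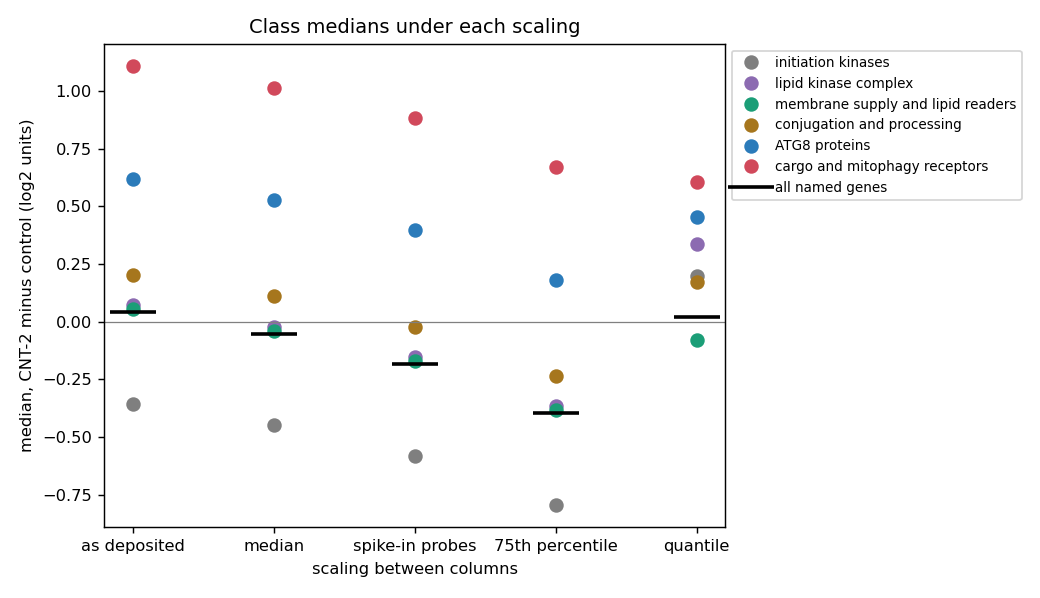
Median difference of CNT-2 minus control (vertical axis, log2 units) for the 6 classes (points) and for all named genes (black dashes) as deposited and under 4 other scalings of the columns (horizontal axis). The receptor median lies highest in each, from 1.11 as deposited to 0.61 after quantile normalization, and the initiation median moves from -0.36 to 0.20. Centring shifts all classes alike, so only quantile normalization could change their order here.

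Promoter sequences were available in RefSeq (assembly GRCr8) for 30 of the 34 genes, 29 of them measured and 6 of them at least 2-fold higher in CNT-2. The 250 bases before the gene start were searched on both strands for CACGTG, the E-box bound by TFEB and its relatives, TGACTCA, bound by AP-1 factors, ACGTG, the core of hypoxia response elements, which lies within CACGTG on both strands, and TGANNNNGC, the core of antioxidant response elements. A match is a description of letters and does not show binding, and the RefSeq start may not be the start used in these cells. CACGTG stood in 4 of 29 measured members (Tbk1, Atg3, Atg5 and Bnip3), against 5.59% of all 33469 promoters, and 1 of the 6 higher members held it. ACGTG stood in 10 of 29, against 16.6% of all promoters, and in 2 of the 6. TGANNNNGC stood in 13 of 29, against 34.7%, and in 1 of the 6. TGACTCA stood in 1 of 29, Map1lc3b, against 4.05%, and in 0 of the 6. The 250 bases of autophagy genes had a median of 60.0% G and C, against 51.2% over all promoters, which also bears on these counts.

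The following 4 promoters are those of the higher members that hold a match, and that of Sqstm1, in which none of the 4 motifs was found in this window. They are written from 5′ to 3′ on the gene's strand, with matches in capitals. The match lies from 99 to 94 bases before the gene start in Bnip3, from 90 to 82 in Wipi2 and from 111 to 107 in Atg4c, where the capitals show ACGTG on the opposite strand.
Bnip3, chr1:203154963-203155212, minus strand: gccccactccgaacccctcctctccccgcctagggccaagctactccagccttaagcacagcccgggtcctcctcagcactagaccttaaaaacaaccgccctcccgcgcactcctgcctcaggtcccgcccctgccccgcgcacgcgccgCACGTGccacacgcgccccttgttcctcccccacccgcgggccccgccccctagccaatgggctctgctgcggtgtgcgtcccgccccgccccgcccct
Sqstm1, chr10:35037751-35038000, minus strand: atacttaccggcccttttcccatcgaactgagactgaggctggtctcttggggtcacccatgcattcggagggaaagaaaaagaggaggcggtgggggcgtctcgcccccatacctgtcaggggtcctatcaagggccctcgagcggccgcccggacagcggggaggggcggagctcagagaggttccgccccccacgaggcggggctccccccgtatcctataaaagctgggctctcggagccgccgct
Wipi2, chr12:17053307-17053556, minus strand: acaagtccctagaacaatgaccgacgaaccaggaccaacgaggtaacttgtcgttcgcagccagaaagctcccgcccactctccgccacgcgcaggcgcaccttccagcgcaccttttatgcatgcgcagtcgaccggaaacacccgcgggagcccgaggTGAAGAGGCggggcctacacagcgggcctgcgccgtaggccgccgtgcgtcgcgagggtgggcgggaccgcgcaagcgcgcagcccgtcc
Atg4c, chr5:118982449-118982698, plus strand: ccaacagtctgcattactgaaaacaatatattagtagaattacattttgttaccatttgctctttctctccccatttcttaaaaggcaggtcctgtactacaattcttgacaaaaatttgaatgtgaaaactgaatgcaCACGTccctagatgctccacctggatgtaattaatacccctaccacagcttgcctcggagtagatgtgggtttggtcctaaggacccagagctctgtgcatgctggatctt

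Further genes of the pathway, listed by their place in it, were read in the same way. They were read as deposited only and were not recounted under the other scalings. Of 14 measured genes of autophagosome maturation and fusion 4 were at least 2-fold higher in CNT-2 and 0 lower, with a median of 0.66 and 12 above 0, where 10.1% of all named genes were higher, 6.56% lower and 53.5% above 0. Tecpr1, a tether between autophagosomes and lysosomes that also acts on damaged lysosomes, was the furthest at 2.21 ± 0.04 for CNT-2 and 0.77 ± 0.08 for CNT-1 (probe SD, 2 probes). Epg5, another tether, was at 1.14 ± 0.12 for CNT-2 (probe SD, 2 probes). The fusion protein Snap29 was at 1.11 ± 0.32 (probe SD, 2 probes), and Vps33a, of the tethering complex HOPS, at 1.08 ± 0.09 (probe SD, 3 probes). Epg5, Snap29 and Vps33a lay closer to the bound than the 0.23 by which spike-in probes were above control in CNT-2. Their place past it therefore depends on the scaling. In CNT-1 none of the 14 was past the bound, where 1.16% of all named genes were higher and 2.15% lower. The median of the 14 in CNT-1 was 0.18.

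Other genes of selective autophagy, mostly receptors, were mixed in CNT-2. Of 13 measured, 4 were at least 2-fold higher, against 10.1% of all named genes, and 1 was lower, against 6.56%, with a median of 0.00. Tollip, an adaptor for ubiquitinated cargo, was at 1.83 ± 0.51, Stbd1, a glycogen receptor, at 1.61 ± 0.08, and Tex264, a receptor for the endoplasmic reticulum, at 1.40 ± 0.27 (probe SD, 2 probes each). Ccpg1, also of the endoplasmic reticulum, was at 1.32 with 1 probe. Pink1, the kinase that marks damaged mitochondria, was at -1.35 with 1 probe, and the mitochondrial receptor Fundc1 at -0.61 ± 0.18 (probe SD, 3 probes), on the other side from Bnip3. In CNT-1 none of the 13 was past the bound, where 1.16% of all named genes were higher and 2.15% lower. The furthest of the 13 in CNT-1 was Tollip at 0.45. Of 10 measured upstream and lipid transfer genes none was past the bound in either exposure, against the same shares of all named genes. The furthest in CNT-2 were Tmem41b, a lipid scramblase, at 0.82, Rb1cc1, the scaffold of the ULK complex, at 0.79 ± 0.48 (probe SD, 3 probes), and Ambra1, a Becn1 partner, at -0.52 ± 0.10 (probe SD, 2 probes). Relative to the median of all genes, which stood at 0.04, these upstream genes lay near the middle of the distribution with a median of 0.12.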

How the data were processed

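Total RNA from 3 groups (control, CNT-1, CNT-2) was put on Agilent arrays with Cy3 as the only dye, per the labels' protocols. Per the submitters' processing notes, the scans were read by Agilent Feature Extraction 10.7.3.1. The deposited values were read as log2 differences centred per probe, since they have both signs and column medians of 0.01, -0.05 and 0.06. The base is presumed, as natural logs could not be told apart from log2. No source used here gives the baseline, the direction or the scaling between arrays; higher was read as more RNA. The number of arrays limits the precision.

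Probes were named through the platform annotation of 20932 gene probes, of which RefSeq accessions (GRCr8) named 17424, a current symbol 3104 and an updated older symbol 396, with 8 unmatched; 20171 probes had no gene. Each carried 1 symbol and 0 carried several. Differences were taken per probe and averaged per gene (Python 3.11.15, pandas 2.3.3), with 1 log2 unit as the bound, and the steps were tested on simulated data. Genes were named in full if past the bound, if their probes disagreed, or if highest or lowest in their class. Members and lists were chosen with earlier results of these data known. Alternatives varied the probe summary, scaling, probe filters, baseline, naming and bound. No genome build is named by the files, so coordinates are given for RefSeq promoters only.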

Additional observations from a re-analysis of the deposited data

How the results depend on the processing

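No paired analysis was possible because each group had 1 column. With 75th percentile centring the members' median was -0.008 in CNT-1 minus control. It was -0.086 in CNT-2 minus control and -0.18 in CNT-2 minus CNT-1. With this centring 2 members were higher and 1 lower in CNT-2 minus control, against 5.26% and 14.4% of all named genes. In CNT-2 minus CNT-1 2 members were higher, against 4.82% of all named genes. With spike-in centring 4 members were higher in CNT-2 minus control, against 7.15% of all named genes. The members' median was then 0.13, and that of CNT-2 minus CNT-1 became -0.064. After quantile normalization 3 members were higher in CNT-1 minus control, with a median of 0.20 and a receptor excess (receptor median minus that of the other members) of 0.36, and 3 in CNT-2 minus control, with an excess of 0.39. For CNT-2 minus CNT-1 it gave 0 higher, a median of 0.002 and an excess of 0.076. The shares of all named genes that were higher were 3.68%, 5.42% and 2.74% in these 3 comparisons. With the probe nearest 0 the excess was 0.15, 0.29 and 0.12 in the 3 comparisons, and Sqstm1 in CNT-2 minus control was -0.31. With genes of 2 or more probes only, 15 members remained measured, 4 of them higher in CNT-2 minus control and 2 in CNT-2 minus CNT-1. Among all genes with 2 or more probes 8.75% and 6.47% were higher in these 2 comparisons. At 1.5-fold 3 members were higher in CNT-1 minus control, against 3.86% of all named genes. In CNT-2 minus control 12 were higher and 1 lower, against 20.2% and 13.8%. In CNT-2 minus CNT-1 9 were higher, against 20.5%. Read as natural logs, 1 member was at least 2-fold higher in CNT-1 minus control, against 2.73% of all named genes. On that reading 8 members were higher in CNT-2 minus control, against 16.7%, and 5 in CNT-2 minus CNT-1, against 16.3%. The cause of these shifts was not tested. Leaving out the fifth Sqstm1 probe, an alternative chosen after seeing the data, changed no count of members. Of the 7 genes past the bound in CNT-2 minus control, all but Sqstm1 stayed above 0 in each setting that measured them, and Bnip3 was past the bound in each.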

Other observations

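Genes that sense nutrients and regulate autophagy from outside the machinery were not described above. They too were read as deposited only and were not recounted under the other scalings. Of 20 measured genes 5 were at least 2-fold higher in CNT-2 than in control and 0 lower, with a median of 0.46 and 16 above 0, where 10.1% of all named genes were higher, 6.56% lower and 53.5% above 0. Rragd and Rragc, GTPases that bring mTORC1 to the lysosome, were at 1.72 and 1.23 in CNT-2 and at 0.85 and 0.66 in CNT-1. Flcn, which acts on these GTPases, was at 0.73 and 0.48. Sesn2, a stress-induced inhibitor of mTORC1, read 0.00 in control, 0.00 in CNT-1 and 1.63 in CNT-2. Tsc1, a subunit of the complex that turns mTORC1 off, was at 1.30 in CNT-2 and 0.17 in CNT-1, and Ddit4, another inhibitor of mTORC1, at 1.02 and 0.59. Each of these had 1 probe, and Ddit4 read 0.19 in the control column. Ddit4 lay just inside the bound, so its place past it depends on the scaling.

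The transcription factor Tfeb, a regulator of lysosomal and autophagy genes, was at 0.88 ± 0.03 in CNT-2 and 0.18 ± 0.09 in CNT-1 (probe SD, 2 probes). Its relative Tfe3 was at 0.33 and -0.27, and Mitf at -0.18 and 0.16, with 1 probe each. Mtor itself was at -0.45 in CNT-2 and -0.11 in CNT-1, the lowest of the 20 in CNT-2. In CNT-1 none of the 20 was past the bound, where 1.16% of all named genes were higher and 2.15% lower. The median of the 20 in CNT-1 was 0.07.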
